A study of Mus musculus with 54 samples.

Results

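The genes described here are 33 glycolytic enzymes, glucose transporters and targets of the hypoxia-inducible factors (HIF), named in a fixed list and all found among the 20036 genes of the expression table. They comprise 2 glucose transporters, 15 glycolytic enzymes, 4 genes of lactate and pyruvate handling and 12 other HIF targets. Their mRNA was followed in mouse embryonic stem cells (ESC), in the epiblast-like cells (EpiLC) made from them, and in day 2 primordial germ cell-like cells (PGCLC), the culture counterpart of the first germ cells. Each stage was sampled in 9 lines with 2 libraries a group, giving 27 groups and 54 libraries. The lines were WT, tagged wild type in the labels, then Ovol1KO, Ovol2KO and Ovol3KO, each tagged as a mutant of the gene it is named for, and TKO, a name the labels do not spell out. The other lines were Cdh1-Tg, Ovol2a/2b-Tg, Ovol2b-Tg and Ovol2a-Tg, each tagged OE for the gene it is named for. The Ovol genes code for transcription factors with zinc fingers, and Cdh1 for the adhesion protein E-cadherin. All lines carry the strain C57BL/6 X 129/SvJ in the labels, which give neither the promoter of the transgenes, nor the background of the transgenic lines, nor whether a line is 1 clone.

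Glycolysis splits glucose into pyruvate in the cytoplasm. Lactate dehydrogenase turns that pyruvate into lactate, while pyruvate dehydrogenase kinases hold it back from the mitochondria. HIF transcription factors are destroyed in the presence of oxygen, because prolyl hydroxylases mark them for degradation, and when they persist they raise many glycolytic genes together with genes for vessel growth, collagen processing and mitochondrial turnover. Naive pluripotent cells use respiration and glycolysis together, and the primed state that follows is known for its reliance on glycolysis.

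Expression was given in TPM, read counts divided by transcript length and scaled to the same total in every library, so the values are shares of the mRNA. The libraries held 2.16 to 26.73 M reads (median 8.65), and among PGCLC the members had from 0 reads (Car9, lowest library) to 89236 (Pkm, highest). In 8 libraries the cell type tag goes against the title, which set the group here: the PGCLC of Ovol2a-Tg and all 3 stages of Cdh1-Tg. The stage markers followed the titles. Klf4 stood at 164 to 329 TPM in the 18 ESC libraries and at no more than 91.2 elsewhere, Fgf5 at 29.8 to 189 in the EpiLC and at no more than 20.2 elsewhere, and T at 59.6 to 1279 in the PGCLC and at no more than 2.18 elsewhere. Ovol2 mRNA stood at 11.3 and 6.98 TPM in the WT PGCLC, 4.74 and 6.68 in those labelled Ovol2KO, 1.52 and 0.835 in TKO and 296 to 3403 in the 3 Ovol2 transgenic lines, and Ovol1 and Ovol3 were no lower in the lines named for them (Ovol1 0.95 and 1.35 against 1.02 and 0.325, Ovol3 9.84 and 7.25 against 9.39 and 9.66). A gene-level value does not show a partial deletion.

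Changes were tested with limma on log2(TPM + 1), with Benjamini-Hochberg adjustment over all 14416 tested genes, and a member is called higher or lower at an adjusted p under 0.05. All 33 members passed the filter on low values. Log2 fold changes are given ± their standard error. Most members described singly were named because they passed this test. That their libraries stood apart is therefore no separate support for the change. Whether the 2 libraries of a group came from separate cultures is not in the labels, and the p-values cover only the spread between these libraries. Some members share sequence with other genes, so their values are uncertain: of the 50-base stretches of the transcripts, 82.5% in Gapdh, 72.2% in Eno1 (70.5% with Eno1b alone), 68.0% in Pgk1, 41.5% in Pgam1, 34.4% in Pkm, 27% in Ldhb, 21.9% in Bnip3, 19.3% in Gpi1, 16.6% in Ldha, 13.5% in Aldoa and 7.5% each in Tpi1 and Higd1a also occur in other genes. In the other 21 members the share was at most 0.1%.

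The promoters of 8 members on which the results turn were read from RefSeq (GRCm38.p6) and searched for the core letters of the HIF binding site, ACGTG and GCGTG, on both strands. Each line gives the 150 bases before the start site, 5′ to 3′ on the strand of the gene, with matches in capitals, where CACGTG holds a match on each strand and counts as 2. P4ha2, Vegfa, Bnip3, Pgk1, Aldoc and Ldha were among the members higher in TKO PGCLC, and Ldhb and Adm fell there. For Vegfa, Aldoc and Ldha the first of 2 listed promoters is shown.
P4ha2 (chr11:54100774-54100923, plus strand): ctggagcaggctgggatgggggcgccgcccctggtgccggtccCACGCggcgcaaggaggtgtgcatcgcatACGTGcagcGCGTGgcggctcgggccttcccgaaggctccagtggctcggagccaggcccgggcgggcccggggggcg
Vegfa (chr17:46032378-46032527, minus strand): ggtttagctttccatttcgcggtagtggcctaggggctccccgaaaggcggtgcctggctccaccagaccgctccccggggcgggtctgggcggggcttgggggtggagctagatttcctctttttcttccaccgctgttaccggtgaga
Bnip3 (chr7:138909507-138909656, minus strand): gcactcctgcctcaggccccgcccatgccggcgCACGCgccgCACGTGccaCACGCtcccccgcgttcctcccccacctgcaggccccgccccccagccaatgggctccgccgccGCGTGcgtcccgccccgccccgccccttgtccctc
Pgk1 (chrX:106186950-106187099, plus strand): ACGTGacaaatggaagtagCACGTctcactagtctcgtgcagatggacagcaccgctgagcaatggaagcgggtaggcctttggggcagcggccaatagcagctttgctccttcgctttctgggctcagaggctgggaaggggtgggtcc
Aldoc (chr11:78322923-78323072, plus strand): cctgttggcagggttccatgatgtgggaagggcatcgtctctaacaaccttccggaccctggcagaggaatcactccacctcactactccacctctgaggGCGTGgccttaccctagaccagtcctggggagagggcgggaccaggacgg
Ldha (chr7:46845654-46845803, plus strand): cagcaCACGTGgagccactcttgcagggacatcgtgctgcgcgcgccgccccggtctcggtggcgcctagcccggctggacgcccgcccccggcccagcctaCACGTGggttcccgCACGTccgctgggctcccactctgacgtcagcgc
Ldhb (chr6:142507958-142508107, minus strand): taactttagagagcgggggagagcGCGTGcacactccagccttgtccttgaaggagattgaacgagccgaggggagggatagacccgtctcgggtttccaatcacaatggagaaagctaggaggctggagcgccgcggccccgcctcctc
Adm (chr7:110627507-110627656, plus strand): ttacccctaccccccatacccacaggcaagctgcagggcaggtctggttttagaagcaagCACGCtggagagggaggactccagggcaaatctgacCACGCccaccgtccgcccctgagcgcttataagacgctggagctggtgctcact

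The window of Bnip3 and that of Ldha hold 5 matches each, that of P4ha2 3, those of Pgk1 and Adm 2 each, those of Aldoc and Ldhb 1 each, and that of Vegfa 0. The second promoter of Vegfa and that of Egln3, which also rose at least 2-fold in TKO PGCLC, hold 0 in the same 150 bases. Farther upstream, within 250 bases of the start, they hold 2 and 1. P4ha1 rose at least 2-fold there too, and its promoter holds 2 in the 150 bases. A match was present in 35 of 44 promoters (79.5%) of the 31 members with an entry, over 300 bases from 250 before to 50 after the start, and 28 members had at least 1 such promoter. Of all 32851 promoters of that length listed, 14380 (43.8%) held a match. The member list includes genes named as HIF targets, so its higher share is no independent result. Overlapping promoters of 1 gene, as in Eno1 and Aldoa, were counted separately. The matches are letters in a window, not sites shown to be bound, and the members that fell hold them as well as those that rose. Slc2a3 and Ndrg1 have no entry.

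In the WT line, members moved in both directions between ESC and EpiLC. The transporter Slc2a3 fell most, with Hk1, Pfkp and Aldoc, which encode the first hexokinase, the platelet-type phosphofructokinase and the brain-type aldolase, while Ldha and several HIF targets rose. Of the 33 members, 12 were higher and 12 lower in EpiLC, against 28.1% and 30.3% of all tested genes, so both counts were near the background. The median member change was 0.12, against −0.01 for all genes.

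Slc2a3, the high-affinity glucose transporter, stood at 690.3 and 681 TPM in the ESC libraries and 68.5 and 70.1 in the EpiLC (log2 fold change −3.29 ± 0.08, adjusted p = 9.14e-28). Ndrg1, a HIF target linked to differentiation, stood at 15.4 and 12 TPM and then 1.82 and 1.12 (log2 fold change −2.58 ± 0.21, adjusted p = 3.55e-13). Pfkp went from 175 and 150.2 to 26.2 and 27.6 TPM (log2 fold change −2.55 ± 0.14, adjusted p = 8.03e-18). In each of these 3 genes the 2 stages were far apart relative to the gap between libraries. The further members that fell at least 2-fold were Hk1 (−1.99 ± 0.15), P4ha1 (−1.66 ± 0.17), which encodes a subunit of the collagen prolyl hydroxylase, and Aldoc (−1.22 ± 0.22). Among the rises, P4ha2, the second such subunit, stood at 1.24 and 2.67 TPM in ESC and 7.21 and 6.15 in EpiLC (log2 fold change 1.42 ± 0.24, adjusted p = 3.43e-06). Ldha, the lactate dehydrogenase subunit that favours lactate, stood at 601 and 597 and then 1470.3 and 1509 TPM (log2 fold change 1.31 ± 0.18, adjusted p = 2.94e-07). Bnip3, a mitochondrial receptor for mitophagy, stood at 15.7 and 21.8 and then 44.8 and 47.1 TPM (log2 fold change 1.27 ± 0.22, adjusted p = 1.07e-05). The libraries of the 2 stages did not overlap in any of them. Egln3 (1.07 ± 0.12), a HIF prolyl hydroxylase, also rose. Car9, a carbonic anhydrase (0 and 0.355 TPM in ESC and 1.49 and 1.66 in EpiLC, adjusted p = 0.0051), and Adm, the vessel-dilating peptide adrenomedullin (listed at 0 in both ESC libraries, 1.27 and 0.87 in EpiLC, adjusted p = 0.0238), passed the test as higher on at most 27 reads a library, and no fold is given for them. The call of Adm was lost without either ESC library or EpiLC replicate 1 (adjusted p 0.0752 to 0.129), and that of Car9 without ESC replicate 1 (adjusted p = 0.0695).

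From EpiLC to PGCLC the transporters rose together and the vessel growth factor gene Vegfa fell. Of the members, 8 were higher and 14 lower in WT PGCLC, against 37.6% and 22.4% of all tested genes. The median change of all genes was 0.15 in this comparison, and that of the members −0.11; with quantile scaling the counts were 5 higher and 15 lower. Slc2a3 regained most of its level, with 513 and 533 TPM in PGCLC (log2 fold change 2.90 ± 0.08, adjusted p = 8.16e-26), and Slc2a1, the ubiquitous glucose transporter, went from 199 and 192 to 469.9 and 525 TPM (log2 fold change 1.34 ± 0.09, adjusted p = 1.22e-15). Adm reached 9.15 and 21.6 TPM (log2 fold change 2.88 ± 0.40, adjusted p = 1.17e-07), with a wide gap between the 2 libraries, and Ndrg1 10.1 and 8.82 (log2 fold change 2.09 ± 0.21, adjusted p = 7.06e-11). P4ha1 (1.51 ± 0.17) rose as well. Vegfa dropped from 30 and 35 to 4.34 and 6.03 TPM (log2 fold change −2.45 ± 0.18, adjusted p = 3.31e-14). Pfkm, the muscle-type phosphofructokinase, dropped from 68.4 and 75 to 26.9 and 34.9 TPM (log2 fold change −1.20 ± 0.10, adjusted p = 1.28e-12). Pdk1, a kinase that inhibits pyruvate dehydrogenase, also fell (−1.07 ± 0.17). Car9 fell to 0 and 0.161 TPM (adjusted p = 0.00221), 0 and 1 reads. None of these genes overlapped between the 2 stages.

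**Figure D1:**
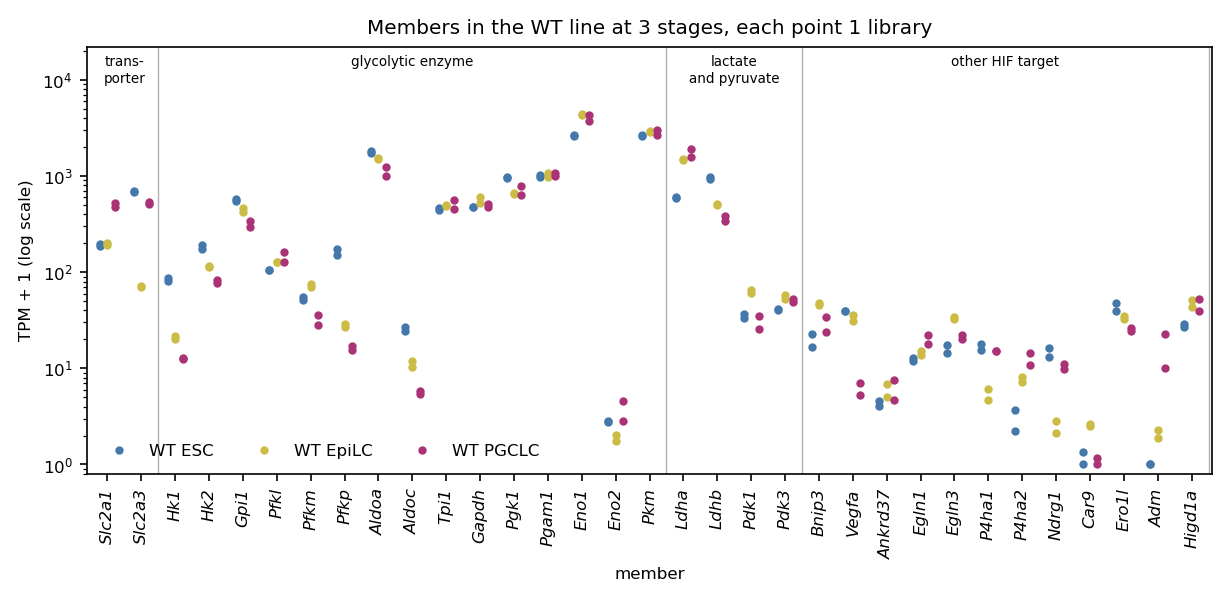
TPM + 1 of the 33 members in the WT line on a log scale, each point 1 library, coloured by stage and grouped by role. Slc2a3 drops from 690.3 and 681 TPM in ESC to 68.5 and 70.1 in EpiLC and returns to 513 and 533 in PGCLC, while Eno1 and Pkm stay at or above 2626 in all 6 libraries.

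Eno1 and Pkm were the most abundant members at every WT stage. Eno1 (enolase) stood at 2652 and 2633 TPM in ESC, 4268 and 4438 in EpiLC and 3745 and 4330.1 in PGCLC, although Eno1b, listed as a gene of its own, carried 3524 and 4086 in PGCLC and shares most of its sequence. Pkm (pyruvate kinase) stood at 2626 and 2690.2, 2944 and 2888 and 2656 and 3015 TPM and passed no WT stage test. Aldoa (aldolase) declined at each step, from 1732 and 1818 to 1492 and 1528 and 1009 and 1233 TPM (log2 fold changes −0.23 ± 0.08 and −0.44 ± 0.08). Gpi1 (glucose phosphate isomerase) did likewise, from 583 and 546 to 422 and 467 and 292 and 339.9 TPM (−0.34 ± 0.08 and −0.49 ± 0.08). Hk2, the second hexokinase, was at 193 and 175, 113 and 116 and 75.8 and 82.1 TPM, a fall at both steps (−0.68 ± 0.09 and −0.53 ± 0.09). Pgam1 (phosphoglycerate mutase, 976 to 1074 TPM over the 6 libraries), Tpi1 (triose phosphate isomerase, 446 to 562) and Pfkl (liver-type phosphofructokinase, 104 to 163) passed neither test. Gapdh, the oxidising step of the pathway, was at 472 and 479, 521 and 611 and 479 and 516 TPM, and Pgk1, the first ATP-yielding step, at 959 and 982, 664 and 650.5 and 641 and 785. The scarcest enzyme was Eno2, the neuronal enolase, at 1.81 and 1.74, 1.04 and 0.773 and 1.81 and 3.6 TPM. Of the remaining HIF targets in the WT libraries, Egln1, the main HIF prolyl hydroxylase, lay between 11 and 21.4 TPM, Ankrd37 between 3.07 and 6.61, the oxidoreductase gene Ero1l between 23.6 and 47.1, and the mitochondrial inner membrane gene Higd1a between 25.7 and 51.7. Pdk3, a second pyruvate dehydrogenase kinase, lay between 39.2 and 56.5 TPM. The 15 glycolytic enzymes together took 1.11 to 1.24% of all TPM in the WT ESC and EpiLC and 1.05 and 1.22% in the WT PGCLC.

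Levels over all 27 groups are given here as the lowest and highest group mean in TPM. Of the transporters, Slc2a1 ranged from 156 (Ovol1KO ESC) to 752 (Ovol2a/2b-Tg PGCLC) and Slc2a3 from 63.7 (Ovol2a/2b-Tg EpiLC) to 1087 (Ovol2a-Tg ESC). At the first steps, Hk1 ranged from 11.1 (Cdh1-Tg PGCLC) to 88.1 (Ovol2a-Tg ESC), Hk2 from 58.4 (Cdh1-Tg PGCLC) to 235 (Ovol3KO ESC) and Gpi1 from 235 (Cdh1-Tg PGCLC) to 636 (Ovol2KO ESC). Of the phosphofructokinases, Pfkl ranged from 56.8 (Ovol2a/2b-Tg ESC) to 279.9 (TKO PGCLC), Pfkm from 26.9 (Ovol2KO PGCLC) to 105 (Ovol3KO EpiLC) and Pfkp from 11.7 (Cdh1-Tg EpiLC) to 163 (WT ESC). At the splitting of the sugar, Aldoa ranged from 676 (Ovol2a/2b-Tg PGCLC) to 2104 (TKO ESC), Aldoc from 3.41 (Ovol2a/2b-Tg EpiLC) to 31.1 (TKO ESC) and Tpi1 from 309 (Ovol2a-Tg ESC) to 884 (TKO PGCLC). At the later steps, Gapdh ranged from 428 (Ovol1KO ESC) to 927 (Ovol2a/2b-Tg ESC), Pgk1 from 499.9 (Cdh1-Tg PGCLC) to 1372 (TKO PGCLC), Pgam1 from 759 (Ovol2a-Tg ESC) to 1547 (TKO PGCLC), Eno1 from 2502 (Ovol1KO ESC) to 4670.4 (TKO PGCLC), Eno2 from 0.337 (Ovol2a/2b-Tg EpiLC) to 3.88 (Ovol3KO EpiLC) and Pkm from 1989 (Ovol2a-Tg ESC) to 3611 (TKO PGCLC). Pfkl, Tpi1, Pgk1, Pgam1, Eno1 and Pkm thus had their highest group mean in TKO PGCLC. Of the lactate and pyruvate genes, Ldha ranged from 145 (Ovol2a/2b-Tg ESC) to 2546 (TKO PGCLC), Ldhb from 118 (Cdh1-Tg PGCLC) to 1561 (Ovol2a-Tg ESC), Pdk1 from 4.95 (Cdh1-Tg PGCLC) to 111 (Ovol3KO EpiLC) and Pdk3 from 33 (Ovol2a/2b-Tg ESC) to 57.7 (Ovol3KO EpiLC). Of the prolyl hydroxylases of HIF and of collagen, Egln1 ranged from 10.2 (Ovol2a-Tg ESC) to 36.2 (Ovol2b-Tg PGCLC), Egln3 from 6.89 (Ovol3KO ESC) to 56.5 (Ovol2b-Tg PGCLC), P4ha1 from 2.26 (Ovol2a/2b-Tg EpiLC) to 43.5 (TKO PGCLC) and P4ha2 from 0.981 (Ovol2b-Tg ESC) to 101 (TKO PGCLC). Of the other HIF targets, Bnip3 ranged from 7.17 (Ovol2a/2b-Tg PGCLC) to 90.3 (TKO EpiLC), Vegfa from 4.95 (Ovol3KO PGCLC) to 61.5 (Ovol3KO EpiLC), Ankrd37 from 1.11 (Ovol2a-Tg ESC) to 9.81 (Ovol3KO EpiLC), Ndrg1 from 1.05 (Ovol2a/2b-Tg EpiLC) to 33 (TKO ESC), Car9 from 0.0803 (WT PGCLC) to 3.75 (Ovol2b-Tg EpiLC), Ero1l from 19.3 (Ovol2a/2b-Tg PGCLC) to 69.2 (Ovol2a-Tg ESC), Adm from 0 (WT ESC) to 15.4 (WT PGCLC) and Higd1a from 26.8 (WT ESC) to 54.6 (Ovol2b-Tg PGCLC).

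The shares of Ldhb, Pfkp and Hk1 within their isozyme families were higher in ESC than at the later stages, while those of Pfkl and Pfkm followed other patterns. Ldhb encodes the lactate dehydrogenase subunit that favours pyruvate, and its share of Ldha and Ldhb was 41.6 to 87.8% in the 18 ESC libraries (median 61.2%), 7.8 to 36.5% in the EpiLC (median 24.8%) and 4.3 to 23.0% in the PGCLC (median 10.4%). The ESC range stood clear of both others, and the share was lower in PGCLC than in EpiLC in every line but Cdh1-Tg, where it was 7.8% and 7.9% in EpiLC and 8.7% and 8.5% in PGCLC. Pfkp took 32.1 to 52.6% of the 3 phosphofructokinases in ESC, 6.4 to 19.9% in EpiLC and 6.4 to 28.5% in PGCLC, the last maximum in Ovol3KO. Pfkl took 55.1 to 84.2% of the 3 in PGCLC (median 72.6%), against medians of 35.4% in ESC and 55.6% in EpiLC, where the lowest libraries (from 46.0%) overlapped the highest ESC libraries. The share of Pfkm was 30.9 to 36.7% in EpiLC, above all PGCLC libraries (median 16.8%), and the ESC (10.9 to 31.7%) overlapped both. Hk1 took 20.8 to 40.9% of the 2 hexokinases in ESC, 10.7 to 18.2% in EpiLC and 12.1 to 18.9% in PGCLC. Slc2a3 took 67.1 to 87.3% of the 2 transporters in ESC, 22.7 to 40.9% in EpiLC and 40.2 to 71.1% in PGCLC, so that PGCLC of Ovol3KO (71.1% and 69.3%) reached into the ESC range. The lowest ESC share of Ldhb belonged to Cdh1-Tg (41.7% and 41.6%), and the highest to Ovol2a-Tg and Ovol2a/2b-Tg (87.8% and 87.7%; 87.6% and 87.7%). In PGCLC the lowest were those of TKO (5.0% and 4.3%) and Ovol2b-Tg (4.3% and 5.9%), against 17.8% and 16.8% in WT.

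**Figure D2:**
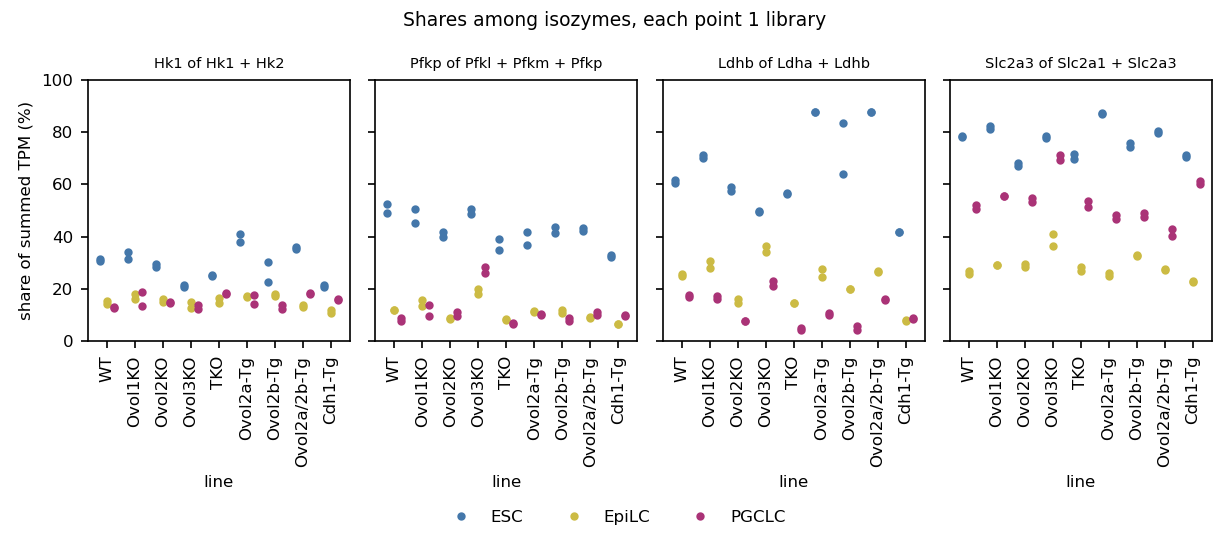
Share in percent of 1 member among the summed TPM of its isozymes (Hk1 of 2 hexokinases, Pfkp of 3 phosphofructokinases, Ldhb of 2 lactate dehydrogenases, Slc2a3 of 2 transporters), each point 1 library of 9 lines and 3 stages. ESC points lie highest within every line in all 4 panels, with a Pfkp share of 32.1 to 52.6% in ESC against 6.4 to 28.5% in PGCLC.

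The largest median shift of the members against WT was in PGCLC of the TKO line, and it was upward. In this comparison 19 of the 33 members were higher and 2 lower, against 20% and 15.3% of all tested genes, and the median member change was 0.53 against 0.03 over all genes. Of the 15 glycolytic enzymes 10 were higher and 0 lower, and of the 12 other HIF targets 8 were higher and 1 lower. Neither glucose transporter passed the test. The 8 comparisons within a stage share the same 2 WT libraries, so they are not independent of each other.

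P4ha2 stood at 9.7 and 13.4 TPM in WT PGCLC and 98.4 and 104 in TKO (log2 fold change 3.04 ± 0.16, adjusted p = 6.07e-09). Vegfa stood at 4.34 and 6.03 and 23.9 and 24.9 (log2 fold change 2.05 ± 0.18, adjusted p = 6.21e-07). Aldoc stood at 4.4 and 4.82 and 16.7 and 22.7 (log2 fold change 1.87 ± 0.27, adjusted p = 8.42e-05). In these 3 genes each TKO library was above both WT libraries by more than the libraries of a line differed. Bnip3 stood at 23 and 33.1 TPM in WT and 68.8 and 102 in TKO (log2 fold change 1.56 ± 0.26, adjusted p = 0.000241). P4ha1 (1.55 ± 0.12) and Egln3 (1.15 ± 0.13) completed the members at least 2-fold higher. Below 2-fold, 9 of the 15 glycolytic enzymes rose: Hk1 (0.59 ± 0.16), Gpi1 (0.27 ± 0.09), Pfkl (0.96 ± 0.13), Pfkp (0.53 ± 0.17), Aldoa (0.69 ± 0.09), Tpi1 (0.80 ± 0.09), Pgk1 (0.94 ± 0.11), Pgam1 (0.59 ± 0.08) and Pkm (0.35 ± 0.07). The HIF targets Ndrg1 (0.97 ± 0.19), Egln1 (0.86 ± 0.15) and Ero1l (0.31 ± 0.11) rose as well. Pgk1 stood at 641 and 785 TPM in WT and 1229 and 1516 in TKO, and Ldha at 1578 and 1892 and 2368 and 2723 (0.55 ± 0.09). Gapdh (0.11 ± 0.12, adjusted p = 0.522) and Eno1 (0.21 ± 0.08, adjusted p = 0.0529) did not pass, and both are among the members whose reads may be divided with copies. The members that fell were Ldhb, from 342 and 382 TPM in WT to 124 and 121 in TKO (log2 fold change −1.55 ± 0.08, adjusted p = 4.34e-09), and Adm, from 9.15 and 21.6 to 2.24 and 2.25 (log2 fold change −2.22 ± 0.50, adjusted p = 0.00314). The 15 glycolytic enzymes took 1.43 and 1.63% of all TPM in TKO PGCLC against 1.05 and 1.22% in WT.

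Markers of other cell types differed between TKO and WT PGCLC as well. The summed level of the 5 fibroblast markers was 265 to 277 TPM in TKO PGCLC against 16 to 23.2 in WT, that of the 8 primitive streak and mesoderm markers 2535 to 2551 against 1842 to 1909.7, and that of the 4 trophoblast markers 636 to 647 against 170.1 to 194, with Elf5 and Tpbpa at 0 in both lines. The 6 extraembryonic endoderm markers summed to 60 to 68.8 against 20.1 to 28.7 (Afp at 0 in both), the 6 endothelium and blood markers to 16.6 to 22.7 against 4.38 to 4.57 (Gata1 and Hbb-bh1 at 0 in both), and the 4 neural markers to 24.1 to 29.3 against 15.9 to 19.4. Of the neural markers, 1 reached 1 TPM in both libraries of either line. The 5 PGCLC markers summed to 36.9 to 42.9 against 112 to 115, the 7 naive ESC markers to 186 to 189.6 against 222 to 229 and the 4 EpiLC markers to 84 to 93.7 against 150.1 to 179.6. Their part in the members' changes was not tested, and in bulk RNA fewer cells of a type and less RNA per cell cannot be told apart.

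PGCLC of Ovol2b-Tg had the same counts as TKO. Against WT, 19 of the 33 members were higher and 2 lower, against 17.7% and 12.2% of all tested genes, with a median member change of 0.45 against 0.03. P4ha2 stood at 62.7 and 58.8 TPM (log2 fold change 2.31 ± 0.16, adjusted p = 1.07e-07), Aldoc at 22.7 and 15.7 (log2 fold change 1.83 ± 0.27, adjusted p = 0.000134) and Vegfa at 23.2 and 17.5 (log2 fold change 1.79 ± 0.18, adjusted p = 3.56e-06), each above both WT libraries. Bnip3 reached 95.5 and 82.7 TPM (1.65 ± 0.26), and Egln3 (1.44 ± 0.13), P4ha1 (1.37 ± 0.12) and Ndrg1 (1.37 ± 0.19) also rose at least 2-fold. Smaller rises were those of Egln1 (0.89 ± 0.15), Pfkl (0.87 ± 0.13), Tpi1 (0.77 ± 0.09), Pgk1 (0.75 ± 0.11), Pfkp (0.74 ± 0.17), Aldoa (0.61 ± 0.09), Ldha (0.48 ± 0.09), Pgam1 (0.46 ± 0.08), Ero1l (0.45 ± 0.11), Gpi1 (0.28 ± 0.09) and Pkm (0.26 ± 0.07). Ldhb fell to 118 and 139 TPM (log2 fold change −1.49 ± 0.08, adjusted p = 1.15e-08). Eno2 stood at 0.811 and 0.67 TPM, from 22 and 2 reads, against 1.81 and 3.6 in WT (log2 fold change −1.05 ± 0.33, adjusted p = 0.0248), and its call was lost without WT replicate 2 (−0.69, adjusted p = 0.23) and without either Ovol2b-Tg library. Slc2a1 was higher here (0.36 ± 0.08). Adm, at 5.6 and 6.11 TPM, did not pass the test (−1.15 ± 0.50, adjusted p = 0.102). Set directly against TKO, 1 member was higher and 1 lower, where 0.749% and 0.444% of all tested genes were called: Slc2a1 (0.52 ± 0.08, adjusted p = 0.00756) and P4ha2 (−0.73 ± 0.16, adjusted p = 0.0402). Without TKO replicate 1 no member passed, and 1 passed without TKO replicate 2 or either Ovol2b-Tg library. The other 31 members not passing does not show that the lines are alike. Bnip3, for example, differed by 0.09 ± 0.26 and Aldoc by −0.04 ± 0.27. The marker sums of Ovol2b-Tg PGCLC in TPM were 212 to 233 for naive ESC, 105 to 106 for EpiLC, 80.5 to 83.2 for PGCLC, 2359 to 2413 for primitive streak and mesoderm, 21.2 to 25.9 for endothelium and blood, 60.7 to 67.4 for extraembryonic endoderm, 545 to 572 for trophoblast, 27.8 to 30.3 for neural and 166 to 215 for fibroblast. Elf5 and Tpbpa of the trophoblast list were at 0 in both libraries, and 1 of the 4 neural markers reached 1 TPM in both. The part of the markers was not tested.

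PGCLC labelled Ovol2KO and those of Ovol2a-Tg each had P4ha2, P4ha1 and Vegfa higher and Ldhb and Pdk1 lower than WT. In Ovol2KO, 5 of the 33 members were higher and 4 lower, against 15.7% and 11.8% of all tested genes (median 0.11), so both counts were near the background. With quantile scaling 6 were higher and 3 lower. P4ha2 stood at 58.4 and 59.3 TPM (log2 fold change 2.27 ± 0.16, adjusted p = 1.27e-07), Vegfa at 19 and 15.3 (log2 fold change 1.56 ± 0.18, adjusted p = 1.45e-05) and Aldoc at 13.3 and 12.8 (log2 fold change 1.32 ± 0.27, adjusted p = 0.00213), all above both WT libraries. Ndrg1 (1.19 ± 0.19) and P4ha1 (0.95 ± 0.12) rose as well, and Pdk1 (−0.97 ± 0.21) fell. Adm stood at 2.39 and 1.85 TPM (log2 fold change −2.28 ± 0.50, adjusted p = 0.00352), Ldhb at 153 and 157 (log2 fold change −1.22 ± 0.08, adjusted p = 5.37e-08) and Eno2 at 0.945 and 0.61 (log2 fold change −1.02 ± 0.33, adjusted p = 0.0296). The call of Adm was lost without WT replicate 2, which carries the higher WT value (−1.71, adjusted p = 0.0552), and that of Eno2 without that library (−0.67, adjusted p = 0.26) or either Ovol2KO library. Of the 15 glycolytic enzymes, Aldoc and Eno2 were the only ones to pass in this line. Against TKO, 12 members were lower and 1 higher (background 3.62% and 1.97%), with Bnip3 (−1.24 ± 0.26) and Pgk1 (−1.08 ± 0.11) the largest. The count was 6 without TKO replicate 2, 8 without Ovol2KO replicate 1 and 7 without Ovol2KO replicate 2, and the call of Bnip3 was lost without that library or Ovol2KO replicate 2 (adjusted p 0.101 and 0.105).

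In Ovol2a-Tg, 4 of the 33 members were higher and 4 lower, against 9.48% and 5.94% of all tested genes (median 0.00). P4ha2 stood at 21.8 and 31.9 TPM (log2 fold change 1.14 ± 0.16, adjusted p = 0.000165) and Ldhb at 154 and 154 (log2 fold change −1.23 ± 0.08, adjusted p = 1.79e-07), the only members changed at least 2-fold in this fit. Smaller changes were those of Vegfa (0.61 ± 0.18), Egln3 (0.57 ± 0.13), P4ha1 (0.47 ± 0.12), Pdk1 (−0.84 ± 0.21), Ldha (−0.37 ± 0.09) and Slc2a3 (−0.31 ± 0.07), and no glycolytic enzyme passed. The count was 3 without Ovol2a-Tg replicate 2 and 4 without WT replicate 2. Against TKO, 17 members were lower and 1 higher (background 8.12% and 7.38%), led by Bnip3 (−1.90 ± 0.26) and P4ha2 (−1.90 ± 0.16). The marker sums in TPM were 212 to 214 for naive ESC, 75.7 to 77.4 for EpiLC, 42.5 to 70 for PGCLC, 2354 to 2634 for primitive streak and mesoderm, 4.94 to 6.22 for endothelium and blood, 42.1 to 43.2 for extraembryonic endoderm, 533 to 578 for trophoblast, 21.1 to 27.6 for neural and 97.4 to 108 for fibroblast in Ovol2KO. In Ovol2a-Tg they were 212 in both libraries for naive ESC, 125 to 148 for EpiLC, 71.7 to 75.8 for PGCLC, 1764 to 1880.3 for primitive streak and mesoderm, 10.5 to 15 for endothelium and blood, 39.4 to 46.3 for extraembryonic endoderm, 246 to 349 for trophoblast, 26.1 to 29.2 for neural and 76.6 to 143 for fibroblast. In both lines Elf5 and Tpbpa of the trophoblast list were at 0 in both libraries. Of the 4 neural markers, 2 reached 1 TPM in both libraries of Ovol2KO and 1 in those of Ovol2a-Tg. The part of the markers was not tested.

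In PGCLC of Ovol2a/2b-Tg and Cdh1-Tg, 7 and 9 of the 15 glycolytic enzymes were lower than in WT, while P4ha2 was higher. In Ovol2a/2b-Tg, 4 of the 33 members were higher and 14 lower, against 20.2% and 14.4% of all tested genes (median −0.30). Bnip3 stood at 7.8 and 6.55 TPM against 23 and 33.1 in WT (log2 fold change −1.81 ± 0.26, adjusted p = 8.09e-05), Pdk1 at 7.56 and 8.57 against 24.4 and 34.2 (log2 fold change −1.72 ± 0.21, adjusted p = 1.68e-05) and Adm at 1.52 and 1.51 (log2 fold change −2.59 ± 0.50, adjusted p = 0.00115). Both libraries lay below both WT libraries in each case. Ldhb (−1.36 ± 0.08) and Ldha (−1.23 ± 0.09) fell at least 2-fold as well. Ldha stood at 777 and 694 TPM against 1578 and 1892 in WT. P4ha2 stood at 31.8 and 32.8 TPM (log2 fold change 1.42 ± 0.16, adjusted p = 7.38e-06). Smaller falls covered Aldoa (−0.72 ± 0.09), Eno1 (−0.62 ± 0.08), Pfkl (−0.50 ± 0.13), Tpi1 (−0.45 ± 0.09), Pkm (−0.44 ± 0.07), Pgam1 (−0.43 ± 0.08), Pgk1 (−0.41 ± 0.11), Egln1 (−0.56 ± 0.15) and Ero1l (−0.33 ± 0.11), and smaller rises Hk1 (0.61 ± 0.16), Slc2a1 (0.59 ± 0.08) and Gapdh (0.46 ± 0.12). Against TKO 19 members were lower and 2 higher (background 18.1% and 19.1%), with Bnip3 (−3.38 ± 0.26) and Aldoc (−2.21 ± 0.27) the largest.

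In Cdh1-Tg, 5 of the 33 members were higher and 15 lower, against 23.3% and 14.3% of all tested genes (median −0.15). Pdk1 stood at 4.98 and 4.92 TPM (log2 fold change −2.33 ± 0.21, adjusted p = 7.12e-07), Ldhb at 121 and 116 (log2 fold change −1.60 ± 0.08, adjusted p = 3.5e-09) and Adm at 2.42 and 1.35 (log2 fold change −2.42 ± 0.50, adjusted p = 0.00158), all below both WT libraries. Bnip3 (−1.36 ± 0.26) fell as well, to 10.2 and 10.1 TPM. Eno2 (0.513 and 0.932 TPM, log2 fold change −1.07 ± 0.33, adjusted p = 0.0173) lost its call without WT replicate 2 or Cdh1-Tg replicate 1 (adjusted p 0.189 and 0.129). P4ha2 was higher, at 53.8 and 50.1 TPM (log2 fold change 2.09 ± 0.16, adjusted p = 1.3e-07), and Vegfa (0.98 ± 0.18), P4ha1 (0.95 ± 0.12), Ndrg1 (0.64 ± 0.19) and Gapdh (0.49 ± 0.12) were the other rises. Smaller falls were those of Eno1 (−0.55 ± 0.08), Pfkl (−0.52 ± 0.13), Pgk1 (−0.50 ± 0.11), Aldoa (−0.49 ± 0.09), Ldha (−0.46 ± 0.09), Pkm (−0.43 ± 0.07), Hk2 (−0.43 ± 0.09), Gpi1 (−0.42 ± 0.09) and Tpi1 (−0.27 ± 0.09). Slc2a1 went different ways in these lines: 0.59 ± 0.08 in Ovol2a/2b-Tg and −0.41 ± 0.08 in Cdh1-Tg, both past the test, with 699 and 804 and 376 and 373 TPM. Against TKO 20 members were lower and 2 higher in Cdh1-Tg (background 7.51% and 11.5%), led by Bnip3 (−2.93 ± 0.26) and Pdk1 (−2.01 ± 0.21). The marker sums of Ovol2a/2b-Tg PGCLC in TPM were 148 to 166 for naive ESC, 164 in both libraries for EpiLC, 71.7 to 91.7 for PGCLC, 1061 to 1218 for primitive streak and mesoderm, 29.9 to 32.9 for endothelium and blood, 22.1 to 28.2 for extraembryonic endoderm, 259.5 to 312 for trophoblast, 29.8 to 33.8 for neural and 109.7 to 124 for fibroblast. The primitive streak and mesoderm sum was thus below that of WT, where TKO was above it, and the fibroblast, trophoblast, neural and endothelium and blood sums were above WT. The naive ESC and PGCLC sums were below it. In Ovol2a/2b-Tg, Elf5 and Tpbpa of the trophoblast list were at 0 in both libraries. Of the 4 neural markers 1 reached 1 TPM in both, and of the 6 endothelium and blood markers 2. In Cdh1-Tg PGCLC Tpbpa was at 0 in both libraries, and 1 of the 4 neural markers reached 1 TPM in both. The sums there were 138 to 142 for naive ESC, 87.2 to 89.6 for EpiLC, 88.2 in both libraries for PGCLC, 1878 to 1929 for primitive streak and mesoderm, 17.8 to 22.7 for endothelium and blood, 57.6 to 57.9 for extraembryonic endoderm, 465 to 492 for trophoblast, 26.4 to 27.7 for neural and 248 to 269 for fibroblast. The fibroblast, trophoblast and extraembryonic endoderm sums of Cdh1-Tg were thus above WT, as in TKO, although more members were lower than higher in Cdh1-Tg. The part of the markers in the members' changes was not tested. The library descriptions of Cdh1-Tg, Ovol2a-Tg and Ovol2a/2b-Tg are each written in a naming style of their own. Any batch this reflects cannot be told apart from the line.

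PGCLC labelled Ovol3KO also had more members lower than higher. Against WT, 5 of the 33 members were higher and 16 lower, against 15.9% and 30.2% of all tested genes (median −0.34 against −0.12 over all genes). Adm stood at 3.31 and 0.589 TPM, from 38 and 1 reads (log2 fold change −2.53 ± 0.50, adjusted p = 0.000854), Slc2a1 at 218 and 229 against 469.9 and 525 in WT (log2 fold change −1.15 ± 0.08, adjusted p = 7.24e-08) and Bnip3 at 10.4 and 15.3 (log2 fold change −1.08 ± 0.26, adjusted p = 0.00313). Pfkp was higher, at 41.8 and 45.8 TPM against 14.5 and 16 (log2 fold change 1.46 ± 0.17, adjusted p = 4.61e-06), and so was Pdk1, at 67.2 and 65.5 (log2 fold change 1.17 ± 0.21, adjusted p = 0.000308). Each of these groups stood apart from WT in both libraries. This was the line of the 8 in which P4ha2 was lower (−0.53 ± 0.16). The other rises were Hk2 (0.50 ± 0.09), Hk1 (0.48 ± 0.16) and Gapdh (0.34 ± 0.12), and the other falls Ndrg1 (−0.88 ± 0.19), Egln3 (−0.84 ± 0.13), Ldha (−0.82 ± 0.09), P4ha1 (−0.72 ± 0.12), Pfkl (−0.67 ± 0.13), Eno1 (−0.57 ± 0.08), Tpi1 (−0.54 ± 0.09), Aldoa (−0.47 ± 0.09), Pgk1 (−0.42 ± 0.11), Ldhb (−0.38 ± 0.08), Pdk3 (−0.38 ± 0.11) and Pkm (−0.31 ± 0.07). The marker sums of these libraries in TPM were 476 to 522 for naive ESC, 301 to 386 for EpiLC, 323 to 338 for PGCLC, 106 to 221 for primitive streak and mesoderm, 26.1 to 38.4 for endothelium and blood, 4.15 to 4.35 for extraembryonic endoderm, 7.69 to 8.7 for trophoblast, 115 to 137 for neural and 8.27 to 8.68 for fibroblast. Against WT, the primitive streak and mesoderm (1842 to 1909.7 in WT, Msgn1 at 0 in Ovol3KO), trophoblast (170.1 to 194), extraembryonic endoderm (20.1 to 28.7) and fibroblast sums (16 to 23.2) were lower, and the naive ESC, EpiLC, PGCLC, neural and endothelium and blood sums were higher. In Ovol3KO, 1 of the 4 neural and 1 of the 6 endothelium and blood markers reached 1 TPM in both libraries. Neither sum therefore stands for its whole list. The endothelium and blood sum was 82 to 87 TPM in WT ESC, also with 1 such marker. The part of the markers in the members' changes was not tested.

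PGCLC labelled Ovol1KO had 2 members higher and 0 lower, against 1.91% and 0.756% of all genes. They were Pfkp, at 30.7 and 19.8 TPM (log2 fold change 0.66 ± 0.17, adjusted p = 0.048), and Slc2a3, at 656 and 660.4 (log2 fold change 0.33 ± 0.07, adjusted p = 0.0292), and no member passed without either WT library or Ovol1KO replicate 1, while 4 passed without Ovol1KO replicate 2.

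**Figure D3:**
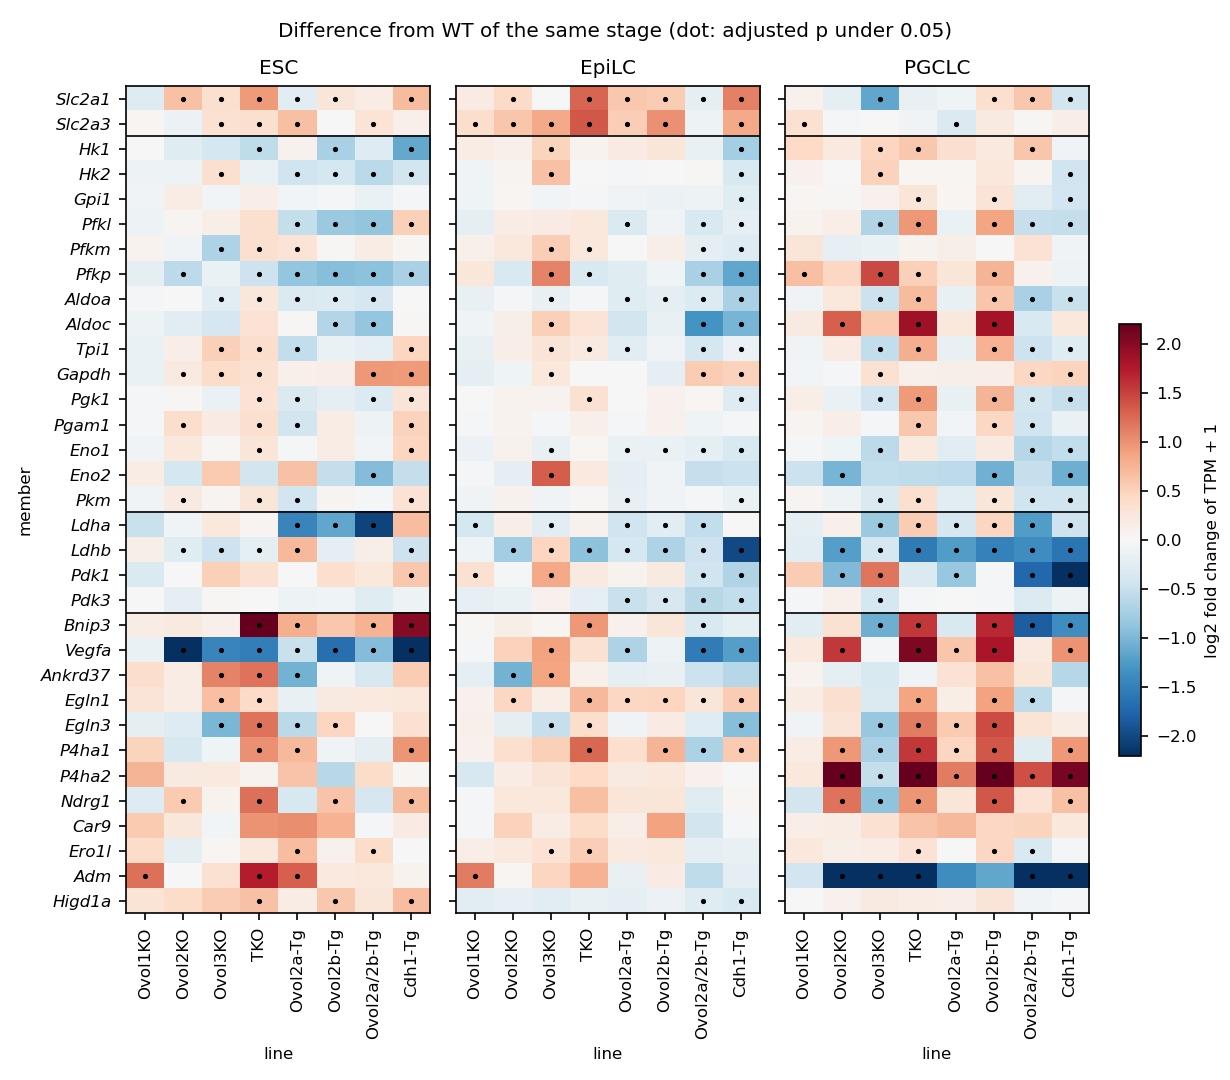
Log2 fold change of TPM + 1 against WT of the same stage for 33 members (rows, grouped by role) and 8 lines (columns) in ESC, EpiLC and PGCLC; red is higher, blue lower, a dot marks an adjusted p under 0.05, and changes past either end of the scale take the end colour. In PGCLC the columns of TKO and Ovol2b-Tg are mostly red, with 19 members higher each, and the rows of Ldhb and Adm are blue in all 8 lines.

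Across the 8 PGCLC comparisons, which share their WT libraries, Ldhb and P4ha2 were called most often, in 7 lines each. P4ha1 and Ldha were called in 6, in both directions. Ldhb was lower in 7 lines and higher in none, with changes from −1.60 to −0.25. The 2 WT libraries stood at 342 and 382 TPM, and the nearest were those of Ovol1KO (303 and 304), the line that did not pass (adjusted p = 0.0922). Adm was lower in 5 lines and higher in none, but its WT libraries stood at 9.15 and 21.6 TPM from 30 and 95 reads, so that each of these comparisons rests on a pair that itself differs widely. P4ha2 was higher in 6 lines and lower in 1, and its order by group mean was Ovol3KO, WT, Ovol1KO, Ovol2a-Tg, Ovol2a/2b-Tg, Cdh1-Tg, Ovol2KO, Ovol2b-Tg and TKO. The libraries of Ovol1KO (14.5 and 12.9 TPM) overlapped those of WT, those of Ovol2a-Tg (21.8 and 31.9) reached those of Ovol2a/2b-Tg (31.8 and 32.8), and those of Ovol2KO and Ovol2b-Tg overlapped. Vegfa, like Adm called in 5 lines, was higher in 5 lines and lower in none. Pfkm, Ankrd37, Car9 and Higd1a passed in no PGCLC comparison.

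**Figure D4:**
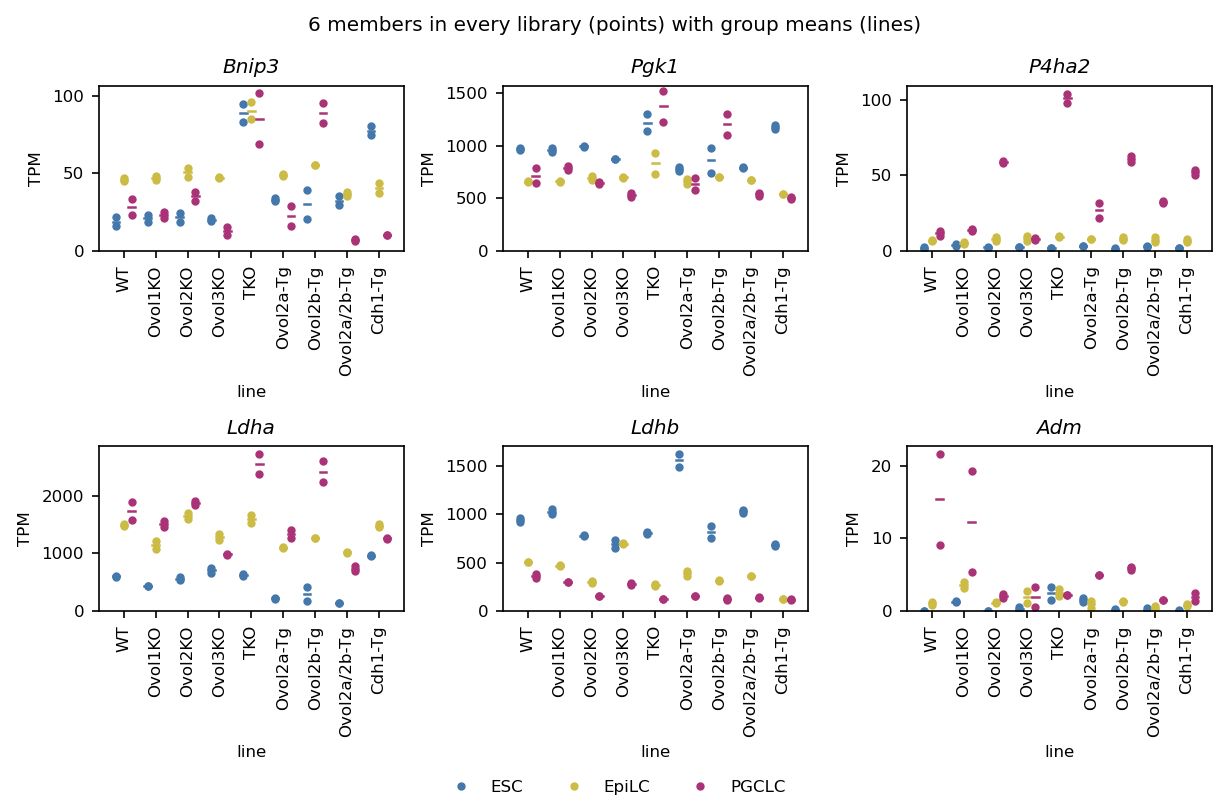
TPM of Bnip3, Pgk1, P4ha2, Ldha, Ldhb and Adm in every library (points) with group means (short lines) for 9 lines and 3 stages; each axis starts at 0. P4ha2 is above 50 TPM in PGCLC of 4 lines and at most 10.1 in every ESC and EpiLC library, and Bnip3 in TKO lies between 68.8 and 102 TPM at all 3 stages.

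Lists of further genes, chosen with earlier results of these data known, set the members beside the rest of the pathway. Counts are given as higher and then lower. They are to be read beside the shares of all tested genes called higher and lower in PGCLC, which were 20% and 15.3% in TKO, 17.7% and 12.2% in Ovol2b-Tg, 15.7% and 11.8% in Ovol2KO, 9.48% and 5.94% in Ovol2a-Tg, 23.3% and 14.3% in Cdh1-Tg, 20.2% and 14.4% in Ovol2a/2b-Tg, 15.9% and 30.2% in Ovol3KO and 1.91% and 0.756% in Ovol1KO, and in the WT steps 28.1% and 30.3% from ESC to EpiLC and 37.6% and 22.4% from EpiLC to PGCLC. Other HIF targets (38 genes) gave 11 and 16 in WT EpiLC against ESC and 16 and 13 in WT PGCLC against EpiLC. In PGCLC against WT they gave 15 and 3 in TKO, 23 and 4 in Ovol2b-Tg, 9 and 5 in Ovol2KO, 9 and 7 in Ovol2a-Tg, 11 and 10 in Cdh1-Tg, 9 and 9 in Ovol2a/2b-Tg, 11 and 16 in Ovol3KO and 1 and 2 in Ovol1KO. Their 3 largest changes were Igfbp3 (4.64 ± 0.17, WT PGCLC step), Slc16a3 (3.80 ± 0.16, WT EpiLC step) and Igfbp3 (−3.37 ± 0.14, Ovol3KO PGCLC), where Igfbp3 encodes a binding protein of insulin-like growth factors and Slc16a3 a lactate exporter. Other glycolysis and glucose genes (34 of 39 tested) gave 11 and 14 in WT EpiLC against ESC and 11 and 12 in WT PGCLC against EpiLC. In PGCLC against WT they gave 11 and 7 in TKO, 11 and 6 in Ovol2b-Tg, 8 and 3 in Ovol2KO, 0 and 3 in Ovol2a-Tg, 8 and 6 in Cdh1-Tg, 6 and 9 in Ovol2a/2b-Tg, 5 and 10 in Ovol3KO and 0 and 0 in Ovol1KO. The largest were Slc16a3 (3.80 ± 0.16, WT EpiLC step), Slc16a3 (−2.08 ± 0.17, Ovol2a/2b-Tg PGCLC) and Eno3 (2.05 ± 0.18, WT EpiLC step). Slc16a3 is in both lists, and Eno3 is the muscle enolase. The 11 HIF factors and regulators gave 3 and 4 in WT EpiLC against ESC and 6 and 2 in WT PGCLC against EpiLC. In PGCLC against WT they gave 4 and 3 in TKO, 4 and 1 in Ovol2b-Tg, 1 and 2 in Ovol2KO, 3 and 1 in Ovol2a-Tg, 5 and 2 in Cdh1-Tg, 3 and 2 in Ovol2a/2b-Tg, 2 and 6 in Ovol3KO and 0 and 0 in Ovol1KO. The 3 largest were all in Epas1, which encodes HIF2A: Epas1 (3.16 ± 0.25, Ovol2a/2b-Tg PGCLC), Epas1 (2.81 ± 0.25, Ovol2b-Tg PGCLC) and Epas1 (2.50 ± 0.25, Ovol2KO PGCLC). Epas1 stood at 3.7 and 3.47 TPM in WT PGCLC, 23.1 and 26 in TKO and 32.7 and 29.6 in Ovol2b-Tg. It stood at 24.2 and 24.9 in Ovol3KO and 38.4 and 41.7 in Ovol2a/2b-Tg. Epas1 was also higher in PGCLC of Ovol2KO, Ovol2a-Tg (1.79 ± 0.25) and Cdh1-Tg (1.76 ± 0.25). Its part in the members' changes was not tested. Hif1a, which encodes HIF1A, stood at 102 and 107 TPM in WT PGCLC, 112 and 107 in TKO and 77 and 82.1 in Ovol3KO.

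In PGCLC, more genes of the tricarboxylic acid cycle list were lower than higher against WT in each line with a call. The respiratory chain list did likewise, except in Ovol2a-Tg, where the counts were equal. In Ovol3KO, where 15.9% of all tested genes were higher and 30.2% lower, neither chain count (3 and 6 of 26) exceeded those shares. In Ovol2KO the 3 of 19 cycle genes that were lower lay near the 11.8% of all tested genes. The 19 tricarboxylic acid cycle genes gave 6 and 8 in WT EpiLC against ESC and 11 and 2 in WT PGCLC against EpiLC. In PGCLC against WT they gave 0 and 10 in TKO, 0 and 10 in Ovol2b-Tg, 0 and 3 in Ovol2KO, 0 and 3 in Ovol2a-Tg, 0 and 8 in Cdh1-Tg, 2 and 6 in Ovol2a/2b-Tg, 0 and 11 in Ovol3KO and 0 and 0 in Ovol1KO. The largest were Idh2 (−1.76 ± 0.09, WT EpiLC step), Suclg2 (0.88 ± 0.12, WT EpiLC step) and Dld (0.74 ± 0.08, WT PGCLC step), enzymes and a subunit of the cycle. The 26 respiratory chain genes gave 4 and 14 in WT EpiLC against ESC and 11 and 5 in WT PGCLC against EpiLC. In PGCLC against WT they gave 1 and 12 in TKO, 0 and 12 in Ovol2b-Tg, 1 and 5 in Ovol2KO, 2 and 2 in Ovol2a-Tg, 2 and 10 in Cdh1-Tg, 5 and 7 in Ovol2a/2b-Tg, 3 and 6 in Ovol3KO and 0 and 0 in Ovol1KO. The largest were Cox7a1 (−2.27 ± 0.60, WT EpiLC step), Cox6a1 (−0.89 ± 0.07, WT EpiLC step) and Ndufa1 (0.87 ± 0.26, Ovol2a/2b-Tg PGCLC). In TKO the median change was −0.18 for the cycle and −0.15 for the chain, beside 0.53 for the 33 members and 0.03 for all genes. The 7 pentose phosphate genes, whose pathway branches off glycolysis, gave 3 and 2 in WT EpiLC against ESC and 1 and 3 in WT PGCLC against EpiLC. In PGCLC against WT they gave 2 and 3 in TKO, 1 and 3 in Ovol2b-Tg, 2 and 1 in Ovol2KO, 1 and 2 in Ovol2a-Tg, 0 and 1 in Cdh1-Tg, 1 and 1 in Ovol2a/2b-Tg, 1 and 1 in Ovol3KO and 0 and 0 in Ovol1KO. The largest were Pgd (−1.01 ± 0.07, WT PGCLC step), Tkt (−0.89 ± 0.06, WT PGCLC step) and Rpe (−0.84 ± 0.12, WT EpiLC step).

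In EpiLC the transporter Slc2a3 was higher than in WT in most lines, and the enzymes went either way. TKO had 10 members higher and 2 lower (background 10.4% and 5.63%), led by Slc2a3 (1.37 ± 0.10) and Slc2a1 (1.28 ± 0.07). The count of 12 was 6 without TKO replicate 2 and 7 without WT replicate 1. Slc2a3 stood at 68.5 and 70.1 TPM in WT and 175 and 186 in TKO, and it was higher than in WT in 7 of the 8 lines at this stage. Cdh1-Tg had 5 higher and 18 lower (background 26.0% and 15.7%), led by Ldhb (−1.99 ± 0.06) and Vegfa (−1.21 ± 0.17). Ldhb stood at 127 and 125 TPM there against 506 and 504 in WT. Ovol2a/2b-Tg had 2 higher and 16 lower (background 20.6% and 17.5%), led by Vegfa (−1.53 ± 0.17) and Aldoc (−1.32 ± 0.15). Ovol3KO had 14 higher and 4 lower (background 15.8% and 15.5%), led by Eno2 (1.34 ± 0.36) and Pfkp (1.09 ± 0.11). Without Ovol3KO replicate 1 its count was 11 instead of 18, and Eno2 lost its call (adjusted p = 0.107), as it did without WT replicate 2 (0.0548). Ovol2a-Tg had 3 and 9 (background 11.6% and 5.65%), led by Vegfa (−0.68 ± 0.17), a call lost without WT replicate 2 or either Ovol2a-Tg library (adjusted p 0.0572 to 0.0746), and Slc2a1 (0.60 ± 0.07). Ovol2b-Tg had 4 and 5 (background 10.3% and 3.13%), led by Slc2a3 (1.0 ± 0.10) and P4ha1 (0.75 ± 0.21). Its 2 libraries differed hardly more than read sampling does (chi-square per degree of freedom 1.05, the lowest of the 27 pairs), and their columns carry numbers that match no label. The next lowest pairs were Cdh1-Tg EpiLC (1.32), Ovol2a/2b-Tg ESC (1.37) and Cdh1-Tg PGCLC (1.43), against a median of 2.42. The count of Ovol2b-Tg was 3 and 4 without either of its EpiLC libraries and 5 without WT replicate 2, and P4ha1 lost its call in all 3 cases (adjusted p 0.0948 to 0.159). Ovol2KO had 3 and 2 (background 5.46% and 3.05%), led by Ankrd37 (−1.04 ± 0.25), lost without WT replicate 1 or either Ovol2KO library (adjusted p 0.071 to 0.176), and Ldhb (−0.76 ± 0.06), and 3 members passed without Ovol2KO replicate 1. Ovol1KO had 3 and 1 (background 2.71% and 0.534%), led by Adm (1.14 ± 0.28) and Slc2a3 (0.39 ± 0.10). The call of Adm was lost without any 1 of the 4 libraries (adjusted p 0.0661 to 0.137), and 1 or 2 members passed then.

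In the EpiLC the marker sums in TPM were 63.5 to 70.7 for naive ESC, 1582 to 1644 for EpiLC, 9.98 to 14.5 for PGCLC, 14.1 to 17.3 for endothelium and blood and 104 to 109.9 for neural in WT. They were 131 to 179 for naive ESC, 1124 to 1213 for EpiLC, 16.3 to 24.3 for PGCLC, 26.6 to 33.8 for endothelium and blood and 132 to 139 for neural in Ovol3KO, where the naive sum was higher and the EpiLC sum lower than in WT. They were 43.2 to 48.4 for naive ESC, 2392 to 2447 for EpiLC, 3.87 to 4.37 for PGCLC, 5.25 to 5.35 for endothelium and blood and 147 to 159 for neural in Cdh1-Tg, where the EpiLC sum was higher. In TKO they were 52.7 to 67.3 for naive ESC, 1743 to 1925 for EpiLC, 3.98 to 8.32 for PGCLC, 6.71 to 7.8 for endothelium and blood and 162 to 172 for neural, in Ovol2a/2b-Tg 94.1 to 95.5 for naive ESC, 1781 to 1802 for EpiLC, 15.8 to 17 for PGCLC, 17.3 to 17.6 for endothelium and blood and 62.6 to 65.9 for neural and in Ovol2a-Tg 133 to 146 for naive ESC, 1471 to 1674 for EpiLC, 15.4 to 17.6 for PGCLC, 17 to 17.8 for endothelium and blood and 141 to 146 for neural. Over the 8 lines the primitive streak and mesoderm sum was 4.22 to 11.3 (5.02 to 5.98 in WT), the extraembryonic endoderm sum 1.04 to 3.56 (1.48 to 1.72), the trophoblast sum 0 to 2.42 (0 to 0.609) and the fibroblast sum 28.4 to 45 (24.1 to 29.8). Their part was not tested.

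In ESC the changes past 2 on the log2 scale were those of Vegfa (lower in Cdh1-Tg and Ovol2KO), Bnip3 (higher in TKO and Cdh1-Tg) and Ldha (lower in Ovol2a/2b-Tg). Bnip3 also passed as higher in Ovol2a-Tg (0.80 ± 0.23) and Ovol2a/2b-Tg (0.76 ± 0.23). TKO had 18 members higher and 4 lower (background 8.41% and 10.1%), led by Bnip3 (2.21 ± 0.23) and Adm (1.55 and 3.32 TPM, adjusted p = 0.000382). The count of 22 was 13 without WT replicate 1 or TKO replicate 2. Bnip3 stood at 15.7 and 21.8 TPM in WT ESC and 83.3 and 94.9 in TKO, and at 44.8 and 47.1 and 85 and 95.7 in the EpiLC, so that its group means in TKO lay within 85.2 and 90.3 TPM at all 3 stages. Cdh1-Tg ESC also had a high Bnip3 (74.7 and 80.3 TPM), and 13 members higher and 5 lower (background 11.1% and 14.2%), led by Vegfa (−2.38 ± 0.17) and Bnip3 (2.01 ± 0.23). The 4 EpiLC markers summed to 328 to 336 TPM in Cdh1-Tg ESC and 169 to 205 in TKO ESC against 97 to 97.8 in WT, the 7 naive markers to 969.8 to 992 and 934 to 1098 against 1332 to 1439, and their part was not tested. Vegfa was lower than in WT in 7 of the 8 lines, from 38.4 and 38.4 TPM in WT to 7.37 and 5.87 in Cdh1-Tg and 7.08 and 6.73 in Ovol2KO. Ovol2a/2b-Tg had 4 and 9 (background 8.99% and 11.5%), led by Ldha (−2.03 ± 0.25) and Gapdh (0.96 ± 0.06), and 8 passed without Ovol2a/2b-Tg replicate 1. Ldha stood at 144 and 147 TPM there and at 601 and 597 in WT. Ovol2a-Tg had 7 and 13 (background 12.6% and 15.4%), led by Ldha (−1.45 ± 0.25) and Adm (1.26 and 1.74 TPM, adjusted p = 0.00206). Its count of 20 was 10 without Ovol2a-Tg replicate 1, 13 without Ovol2a-Tg replicate 2 and 12 without WT replicate 1, and on whole reads 10 were higher and 11 lower. Ovol2b-Tg had 4 and 8 (background 10.3% and 13.7%), led by Vegfa (−1.66 ± 0.17) and Ldha (−1.14 ± 0.25). Its libraries disagreed on Ldha (425 and 173 TPM), whose change was −1.79 without replicate 1 and −0.49 without replicate 2, and 7 members passed without WT replicate 1. Ovol3KO had 7 and 5 (background 7.54% and 5.13%), led by Vegfa (−1.46 ± 0.17) and Ankrd37 (1.09 ± 0.28), the latter lost without WT replicate 2 or Ovol3KO replicate 1 (adjusted p 0.122 and 0.133). Ovol2KO had 5 and 3 (background 6.53% and 9.22%), led by Vegfa (−2.32 ± 0.17) and Slc2a1 (0.65 ± 0.09), with 5 passing without WT replicate 1 and 4 without any 1 of the other 3 libraries. Ovol1KO had 1 member higher and none lower (background 1.48% and 0.527%), Adm (1.22 and 1.4 TPM, adjusted p = 0.0305), a call lost without any 1 of the 4 libraries. Adm is listed at 0 in both WT ESC libraries, so no fold is given for it at this stage.

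Gapdh, often used as a reference gene, was itself not level across the lines. It stood at 934 and 921 TPM in Ovol2a/2b-Tg ESC and 915 and 908 in Cdh1-Tg ESC against 472 and 479 in WT, at 832 and 838 and 826 and 778 against 521 and 611 in the EpiLC, and at 702 and 672 and 697 and 702 against 479 and 516 in the PGCLC. It passed the test as higher in these 2 lines at all 3 stages (adjusted p at most 0.00632), and also with quantile scaling and on whole reads (at most 0.0352). It also passed at all 3 stages in Ovol3KO, by 0.40 ± 0.06 in ESC, 0.24 ± 0.07 in EpiLC and 0.34 ± 0.12 in PGCLC, under both other settings too, and in ESC of Ovol2KO (0.19 ± 0.06) and TKO (0.33 ± 0.06). It passed as lower in no line. It was singled out after its values were seen, and its reads may be divided with 218 genes that share its sequence.

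Whether the signed difference of a line from WT was the same in PGCLC and EpiLC was tested as an interaction over all 54 libraries. The counts are of members whose difference was more positive and then more negative in PGCLC, beside the share of all genes called in either direction. They were 0 and 0 in Ovol1KO (background 1.13%), 6 and 6 in Ovol2KO (background 16.4%), 0 and 19 in Ovol3KO (background 39.0%), 12 and 4 in TKO (background 21.2%), 3 and 4 in Ovol2a-Tg (background 6.67%), 15 and 2 in Ovol2b-Tg (background 16.7%), 8 and 10 in Ovol2a/2b-Tg (background 19.2%) and 8 and 7 in Cdh1-Tg (background 22.1%). Split by direction, the Ovol3KO background held 2079 genes with a more positive and 3545 with a more negative difference, among 14416 tested. The TKO background split into 1416 positive and 1638 negative genes, that of Ovol2b-Tg into 1057 positive and 1352 negative. Among the members, the glycolytic enzymes accounted for 9 of the positive differences in TKO and for 10 in Ovol2b-Tg. Both transporters were negative in TKO (−1.45 ± 0.11 for Slc2a3, −1.44 ± 0.12 for Slc2a1). The 2 largest differences were in Adm and P4ha2 for Ovol2KO and TKO, in Adm and Eno2 for Ovol3KO, in Vegfa and Pdk1 for Ovol2a-Tg, in P4ha2 and Aldoc for Ovol2b-Tg, and in Adm and Vegfa for Ovol2a/2b-Tg and Cdh1-Tg. In EpiLC, P4ha2 lay between 4.22 and 10.1 TPM in all 18 libraries and passed in no line, and in PGCLC it ran from 6.94 to 104. The difference for Ovol3KO was negative in all 19 members that passed, beside a median shift of −0.12 over all genes. With quantile scaling, and on whole reads, 17 were negative and 2 positive. The Ovol2a-Tg count was 4 instead of 7 without PGCLC replicate 2 of that line, and on whole reads 5 were positive and 4 negative. That of Ovol1KO was 2 instead of 0 without its PGCLC replicate 2.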

How the data were processed

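Messenger RNA of 54 mouse libraries (27 groups of 2) was measured by poly(A)-selected, strand-marking sequencing. Per the submitters' processing notes, HISAT2, featureCounts and edgeR were used with the mm10 genome. Tool versions, annotation and strand use are not given in the sources. The values deposited by the authors are TPM (length-scaled transcript shares with the same total in every library) in 1 table of 20036 genes. In each library they were whole multiples of what 1 read is worth for all 17973 genes with a value above 0 (tolerance 0.001 reads), which gave 2.16 to 26.73 M reads.

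TPM were analysed as log2(TPM + 1) with limma 3.58.1 in R 4.3.3 (trend and robust), over the 14416 genes with at least 1 TPM in at least 2 libraries. Lines were compared with WT or TKO in 18-library fits of 1 stage (9 residual degrees of freedom), and WT stages and interactions in a 54-library fit (27). P-values were adjusted over all tested genes by the Benjamini-Hochberg method. The fits were tested on simulated data. Isozyme shares and marker sums were taken from TPM. The members and all gene lists were chosen with earlier results of these data known. By rule, members past an adjusted p of 0.05 and changed at least 2-fold (up to 12) were named in the WT stage and PGCLC comparisons, the 2 largest in the others, and the 3 largest changes of each further list. Other members are named to complete the account. Promoters came from RefSeq (GRCm38.p6). Alternatives were another pseudocount (0.1), no filter on low values, quantile scaling, the replicate number as a block, each library left out, and limma-voom on the whole reads, the last chosen after seeing the data. Groups follow the sample titles. The 2 EpiLC columns of Ovol2b-Tg with numbers that match no label were placed in their group only.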

Additional observations from a re-analysis of the deposited data

Results flagged for a closer look

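In 7 lines the difference from WT was not the same in PGCLC as in EpiLC for single members, by the interaction test over all 54 libraries (limma, adjusted over all tested genes). Values are the PGCLC difference minus the EpiLC difference on the log2(TPM + 1) scale, and all 7 share the same WT libraries.

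P4ha2 differed by 2.10 ± 0.33 in Ovol2KO, 2.60 ± 0.33 in TKO and 2.07 ± 0.33 in Ovol2b-Tg. Aldoc differed by 1.98 ± 0.32 in Ovol2b-Tg. Vegfa differed by 1.29 ± 0.25 in Ovol2a-Tg, 1.74 ± 0.25 in Ovol2a/2b-Tg and 2.19 ± 0.25 in Cdh1-Tg. In all of these the PGCLC difference was the more positive.

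Adm differed by −2.33 ± 0.56 in Ovol2KO, −3.00 ± 0.56 in Ovol3KO, −2.99 ± 0.56 in TKO, −2.03 ± 0.56 in Ovol2a/2b-Tg and −2.22 ± 0.56 in Cdh1-Tg. Without PGCLC WT replicate 2 (95 reads of Adm, against 30 in replicate 1) the values were −1.45 (adjusted p = 0.1) in Ovol2a/2b-Tg and −1.64 (0.0517) in Cdh1-Tg, and that of Ovol2a/2b-Tg was also lost without its EpiLC replicate 2 (adjusted p = 0.0504) and on whole reads (0.166). With a pseudocount of 0.1 the calls of Adm in Ovol2KO, Cdh1-Tg and Ovol2a/2b-Tg were lost (adjusted p 0.0926, 0.115 and 0.296). Eno2 differed by −1.88 ± 0.48 in Ovol3KO, with PGCLC libraries of 66 and 2 reads. Pdk1 differed by −0.92 ± 0.24 in Ovol2a-Tg, and this call was lost without EpiLC WT replicate 1, PGCLC WT replicate 2 or PGCLC Ovol2a-Tg replicate 2 (adjusted p 0.0611 to 0.179).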

How the results depend on the processing

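Of 553 member changes past the test, none changed sign under quantile scaling, limma-voom on whole reads, the other pseudocount, no filter or the replicate block, and 51, 33, 16 and 45 lost their call under the first 4. The size of a change could move more: by up to 0.34 on the log2 scale under quantile scaling, 2.15 on whole reads and 2.84 with the other pseudocount. Of 119 named changes, 99 kept direction and call under every alternative, left-out libraries included.

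Counts of changed members stayed within 1.5 times in most settings, with these exceptions. With a pseudocount of 0.1, Ovol1KO went from 2 to 1 in PGCLC and from 1 to 0 in ESC, and Ovol2b-Tg against TKO from 2 to 1. Without a filter the counts were 0 for Ovol1KO in PGCLC, 2 in EpiLC (4 before) and 0 in ESC, and 1 for Ovol2b-Tg against TKO. Quantile scaling gave Ovol1KO 1 in PGCLC, 2 in EpiLC and 0 in ESC. Limma-voom gave Ovol1KO 0 in PGCLC and 0 in ESC.

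Replicate numbers did not pair the samples: of 125 pairs of groups, 5 correlated over 0.1 (range −0.208 to 0.197). With the replicate number as a block, Ovol1KO gave 1 in PGCLC and 2 in EpiLC, 35 of 37 counts stayed within 1.5 times, and 20 of 527 calls were lost.

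Leaving out 1 library gave, in ESC, 0 for Ovol1KO, 4 to 5 for Ovol2KO (8 in full), 13 to 18 for TKO (22), 10 to 14 for Ovol2a-Tg (20), 7 to 18 for Ovol2b-Tg (12) and 8 to 10 for Ovol2a/2b-Tg (13). In EpiLC it gave 1 to 2 for Ovol1KO (4), 3 to 5 for Ovol2KO (5), 11 to 15 for Ovol3KO (18), 6 to 13 for TKO (12) and 3 to 7 for Ovol2b-Tg (9). In PGCLC it gave 0 to 4 for Ovol1KO (2) and 3 to 9 for Ovol2a-Tg (8), and against TKO 6 to 11 for Ovol2KO (13) and 0 to 1 for Ovol2b-Tg (2). The interaction counts were 0 to 2 for Ovol1KO (0) and 4 to 6 for Ovol2a-Tg (7). Fewer libraries enter these fits, and the cause was not tested further. The counts of TKO and Ovol2b-Tg in PGCLC (21 each) ran from 17 to 22 and 17 to 23.

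Depth limits Adm, Car9, Eno2 and Ankrd37, which had as few as 1, 0, 2 and 4 reads in a PGCLC library.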
